A study of Mus musculus with 12 samples.

Results

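Genes of radial glia and of dorsal forebrain patterning were followed in the brains of mouse embryos. The set holds 10 genes, Pax6, Emx1, Emx2, Lhx2, Gli3, Sox9, Vim, Nes, Fabp7 and Slc1a3, chosen by name among the 40690 gene identifiers of the deposited count table. All 10 passed the filter on low counts, as did 16002 genes in all. The data are sequenced polyadenylated RNA of 12 whole C57BL/6J brains, taken at embryonic day 14.5 and forming 4 groups of 3 embryos. LC1 knockout embryos (7, 22 and 71) lack LC1, a conserved non-coding element near Pou3f2, and were set against LC1 wild types (6, 26 and 73), all female. RKI homozygous embryos (A1, A10 and A18) carry on both alleles a variant of that element known from humans, introduced as a knock-in, and were set against RKI wild types (A2, A9 and A16), with 2 males and 1 female in each group. Mutants and wild types were matched by sex and litter per the labels' protocol, but no label names the litters. Total counts ran from 18192984 to 26566769 per library, and the 10 genes had 623 to 31759 counts in each library. The deletion and the knock-in cannot be read from gene counts, so the genotypes were not checked.

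Radial glia are the stem cells of the embryonic brain. Their bodies line the ventricle, their long processes reach the outer surface, and they give rise to neurons and later to astrocytes. In the cortex their dorsal identity is set by transcription factors that act in gradients and restrain one another's neighbouring territories, while filament proteins and a lipid carrier mark the cells themselves.

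Per kilobase, levels were highest for the filament gene Vim and the lipid carrier gene Fabp7 and lowest for the patterning factors Gli3 and Pax6. In the authors' RPKM, averaged over 12 libraries, Vim had 513 ± 49.4 (SD) and Fabp7 215 ± 16.3. Nes had 58.6 ± 6.69 and Lhx2 53.6 ± 5.77, and their ranges over libraries overlapped. Sox9 came next at 21 ± 1.59, and its lowest libraries overlapped with the highest of Emx2. Slc1a3 at 16.5 ± 0.934, Emx1 at 16.4 ± 1.53 and Emx2 at 15.9 ± 1.57 could not be ordered, since their ranges overlapped. Gli3 at 10.9 ± 1.5 and Pax6 at 8.39 ± 0.757 also overlapped and were the lowest. Between libraries the coefficient of variation of CPM ran from 5.19% for Slc1a3 to 13% for Gli3. The median was 5.52% over the 6297 genes at or above the mean CPM of Emx1, the lowest of the 10 genes. In a whole brain, fewer cells of a type and less RNA per cell cannot be told apart in any of these levels.

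None of the 10 genes passed the threshold in the comparison of either mutant with its wild type. By edgeR's quasi-likelihood test at an adjusted p under 0.05, 0 of 10 were called for LC1, where 0% of all 16002 genes were called, and 0 of 10 for RKI, where the share was also 0%. DESeq2 and limma-voom called 0 of the 10 as well. At an unadjusted p under 0.05 by each of the 3 tools, the LC1 comparison listed 1 of the 10, Fabp7, and the RKI comparison listed 2, Emx2 and Lhx2. The share of all genes listed so by edgeR was 2.09% for LC1 and 1.92% for RKI. No gene of the 10 had mutants wholly above or wholly below their wild types. In LC1, 3.36% of all genes had knockouts wholly above wild types and 3.81% wholly below. In RKI, 2.59% of all genes had homozygotes wholly above wild types and 3.07% wholly below.

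**Figure D1:**
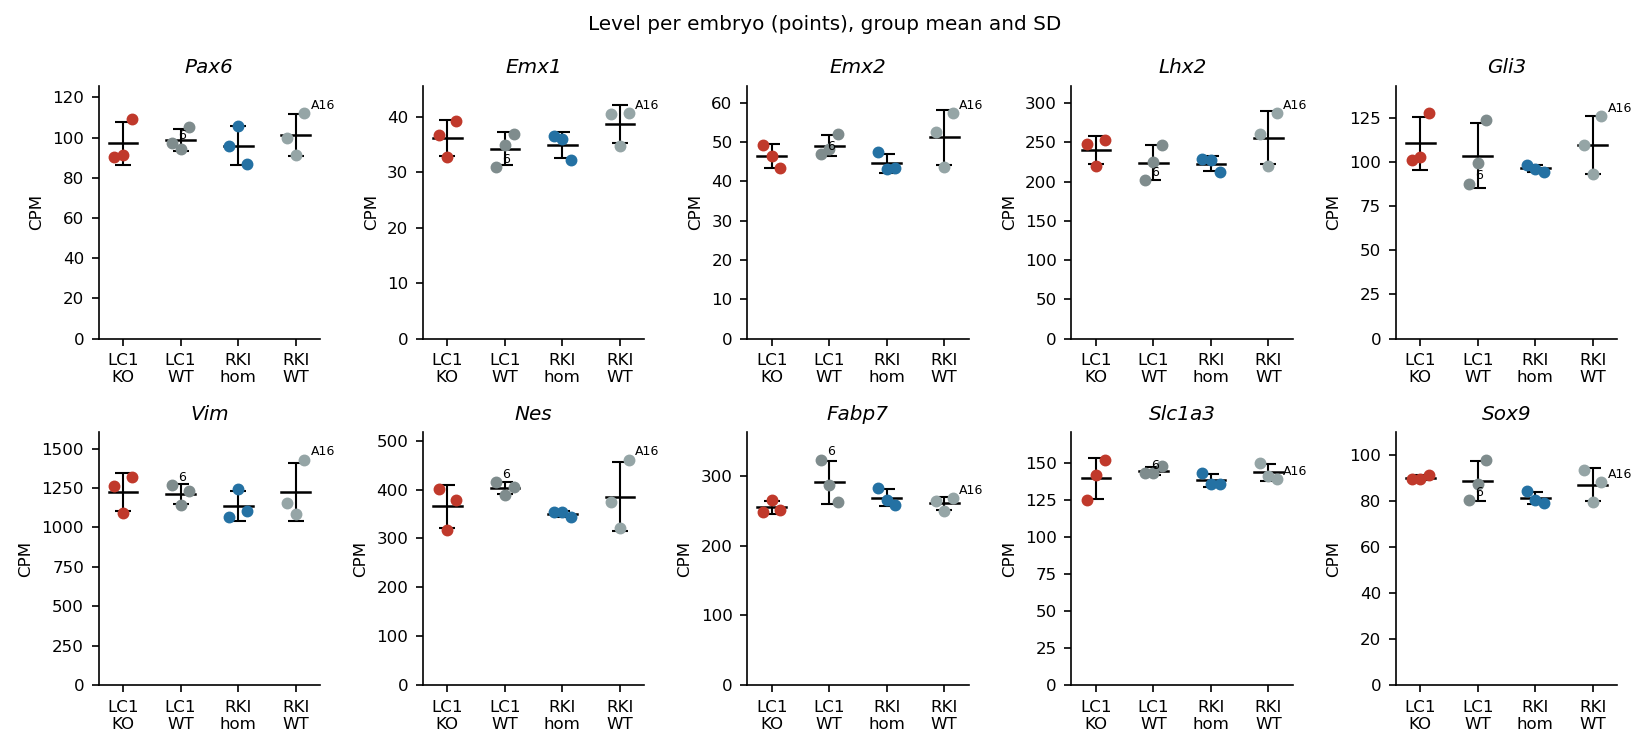
Level of each gene in CPM per embryo (points) for LC1 knockouts, LC1 wild types, RKI homozygotes and RKI wild types, with group mean and SD (n = 3 each). All vertical axes start at 0, and embryos 6 and A16 are marked; mutants and their wild types overlap in every panel.

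Pax6, a paired-box factor that sets the dorsal identity of cortical progenitors and drives neurogenesis, differed by less than the spread between embryos. It is ENSMUSG00000027168, at chr2:105668900-105697364 on the plus strand in GENCODE M21 on GRCm38. LC1 knockouts averaged 97.1 ± 10.7 CPM and LC1 wild types 98.9 ± 5.53 CPM (SD, n = 3 each). RKI homozygotes had 96.0 ± 9.58 CPM and RKI wild types 101 ± 10.4 CPM (SD, n = 3 each). Fitted log2 fold changes were -0.03 (SE 0.093) for LC1 and -0.08 (SE 0.092) for RKI, with adjusted p of 1 in both.

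Pax6 also has an alternative exon, known as exon 5a, that inserts 14 amino acids into the DNA-binding paired domain and changes which sites the protein binds. The exon is 42 bases long and lies at chr2:105684751-105684792 on the plus strand of GRCm38. Its sequence from the GENCODE M21 transcripts is shown in capitals, between the last 30 coding bases of the exon before it and the first 30 of the exon after it, because the isoform values below turn on it.
Pax6 exon 5a: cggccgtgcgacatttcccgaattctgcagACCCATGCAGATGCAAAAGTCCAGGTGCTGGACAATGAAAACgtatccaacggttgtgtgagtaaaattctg
Of 10 coding Pax6 transcripts that span the position, 5 hold this exon and 5 skip it. In the authors' transcript RPKM, the transcripts with the exon made up 22.5%, 27.2% and 35.6% of the summed level of these 10 in LC1 knockouts 7, 22 and 71, against 21.5%, 27.6% and 28% in LC1 wild types 6, 26 and 73. They made up 18%, 31.7% and 32.5% in RKI homozygotes A1, A10 and A18, against 31.8%, 30.4% and 36.5% in RKI wild types A2, A9 and A16. Transcripts without the exon were thus the larger part in all 12 libraries, and the groups overlapped in both experiments. The difference in means was 2.73 percentage points in LC1 (two-sided exact permutation test, p = 0.6) and -5.5 in RKI (p = 0.5 by the same exact test), where 3 embryos against 3 allow no p under 0.1. Short reads assign such isoforms with an error that the deposited estimates do not state.

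**Figure D2:**
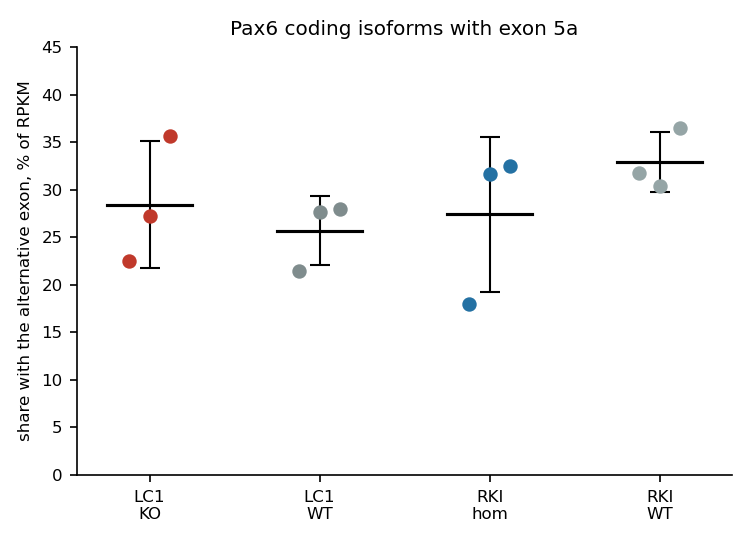
Share of the summed RPKM of coding Pax6 transcripts that holds the alternative exon, in percent, per embryo (points) with group mean and SD (n = 3 each), for LC1 knockouts, LC1 wild types, RKI homozygotes and RKI wild types. Values run from 18% to 36.5%, and mutants overlap with wild types in both experiments.

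Emx1 and Emx2, homeobox factors of the dorsal telencephalon, had values of opposite sign in the LC1 comparison and values under 0 in RKI, with 0 calls. Emx1 (ENSMUSG00000033726, chr6:85187438-85204462, plus strand) is largely restricted to the cortical lineage. It had 36.6, 32.8 and 39.1 CPM in LC1 knockouts 7, 22 and 71, against 30.9, 35 and 36.8 CPM in LC1 wild types 6, 26 and 73. Wild type 6 was the lowest of all 12 libraries, and the other 2 wild types lay within the range of the knockouts. In RKI it had 36.6, 35.9 and 32.2 CPM in homozygotes A1, A10 and A18, against 40.5, 34.7 and 40.6 CPM in wild types A2, A9 and A16. A2 and A16, both male, were above all homozygotes, whereas the female wild type A9 lay among them. The log2 fold change was 0.08 (SE 0.09) for LC1 and -0.15 (SE 0.088) for RKI.

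Emx2 (ENSMUSG00000043969, chr19:59458372-59465357, plus strand) patterns the caudal and medial cortex. It had 49.3, 46.6 and 43.4 CPM in LC1 knockouts, against 46.9, 48.3 and 52.1 CPM in LC1 wild types, a log2 fold change of -0.08 (SE 0.076). It had 47.4, 43.1 and 43.3 CPM in RKI homozygotes, against 52.5, 43.6 and 57.4 CPM in RKI wild types A2, A9 and A16. A16 was the highest of the 12 libraries, and A9 stood at the level of the lower homozygotes, so the RKI groups overlapped. The RKI log2 fold change was -0.19 (SE 0.075), a fold of 0.875 with a 95% interval of 0.783 to 0.976, at an unadjusted p of 0.02 and an adjusted p of 1 by edgeR. It was -0.13 without A16. Emx2 overlaps Emx2os, an antisense gene, which had 100 to 215 counts per library, or 11.3% to 18.5% of the Emx2 count. Whether the counting used strand is not stated, so reads of these genes cannot be told apart. Pax6os1, antisense to Pax6, had 3 to 15 counts, at most 0.763% of the Pax6 count. The antisense genes Gm27197 and Gm13584, which overlap Lhx2, had at most 47 and 46 counts in a library, and Gm6556, which overlaps Gli3, at most 5.

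Lhx2, a LIM-homeobox factor that selects cortical against hem identity, had the lowest RKI value of the 10 beside Emx2. The gene is ENSMUSG00000000247, at chr2:38339281-38369733 on the plus strand. In LC1 it had 248, 219.8 and 253 CPM in knockouts 7, 22 and 71, against 202, 225 and 246 CPM in wild types 6, 26 and 73. In RKI it had 229, 228 and 212 CPM in homozygotes A1, A10 and A18, against 261, 220.1 and 288 CPM in wild types A2, A9 and A16. Wild type 6 was the lowest and wild type A16 the highest of the 12 libraries. A9 again lay among the homozygotes. The log2 fold change was 0.10 (SE 0.086) for LC1. For RKI it was -0.19 (SE 0.086), a fold of 0.875 with a 95% interval of 0.771 to 0.992, at an unadjusted p of 0.0381 and an adjusted p of 1, and -0.12 without A16.

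Gli3 (ENSMUSG00000021318, chr13:15463235-15730026, plus strand), a zinc-finger factor of the Hedgehog pathway whose repressor form protects dorsal identity, varied the most between embryos. It had 101, 103 and 128 CPM in LC1 knockouts 7, 22 and 71, against 87.8, 99.3 and 124 CPM in LC1 wild types 6, 26 and 73. Each LC1 group thus held 1 high embryo, knockout 71 and wild type 73. It had 98.3, 96.2 and 94.5 CPM in RKI homozygotes, against 110 (A2), 92.9 (A9) and 126 (A16) CPM in RKI wild types. The homozygotes lay close together, inside the range of their wild types. The log2 fold change was 0.09 (SE 0.126) for LC1 and -0.18 (SE 0.125) for RKI, where it was -0.09 without A16. The RKI value had an unadjusted p of 0.179 by edgeR. The authors' deposited comparison gives Gli3 -0.18 in RKI, with an unadjusted p of 0.0381 and an adjusted p of 0.997. Sox9 (ENSMUSG00000000567, chr11:112782224-112787760, plus strand), a factor that maintains neural stem cells and prepares gliogenesis, averaged 90.4 ± 1 CPM in LC1 knockouts, against 88.8 ± 8.83 CPM in their wild types. It had 81.4 ± 2.59 CPM in RKI homozygotes and 87.3 ± 7.1 CPM in RKI wild types (SD, n = 3 each). Its log2 fold change was 0.02 (SE 0.069) for LC1 and -0.10 (SE 0.069) for RKI.

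The filament genes did not pass in either comparison. Vim (ENSMUSG00000026728, chr2:13573927-13582826, plus strand) encodes vimentin, which partners with nestin in radial glia. It averaged 1225 ± 118 CPM in LC1 knockouts, against 1214 ± 63.4 CPM in their wild types, and 1137 ± 94 CPM in RKI homozygotes and 1224 ± 183 CPM in RKI wild types (SD, n = 3 each). Its log2 fold change was 0.01 (SE 0.099) for LC1 and -0.10 (SE 0.099) for RKI. Nes (ENSMUSG00000004891, chr3:87971078-87980451, plus strand) encodes nestin itself. It had 402, 317 and 380 CPM in LC1 knockouts 7, 22 and 71, against 416, 389 and 405 CPM in LC1 wild types 6, 26 and 73. Knockout 22 was the lowest of the 12 libraries and knockout 7 lay among the wild types. The log2 fold change was -0.14 (SE 0.099), at an unadjusted p of 0.178 by edgeR. It was -0.05 without knockout 22 and -0.21 without knockout 7. The authors' deposited comparison gives Nes -0.14 in LC1, with an unadjusted p of 0.0103 and an adjusted p of 0.937. In RKI, Nes had 353, 355 and 343 CPM in homozygotes, against 375, 321 and 462 CPM in wild types A2, A9 and A16, a log2 fold change of -0.13 (SE 0.099). Without A16 the RKI log2 fold change was 0.03 for Vim, 0.01 for Pax6 and 0.00094 for Nes, all with the opposite sign.

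Fabp7, a brain lipid-binding protein of radial glia, was the gene of the 10 with the smallest p in LC1. The gene is ENSMUSG00000019874, at chr10:57784881-57788450 on the plus strand. It had 249, 266 and 252 CPM in LC1 knockouts 7, 22 and 71, against 324, 288 and 262 CPM in LC1 wild types 6, 26 and 73. Wild type 6 was the highest of the 12 libraries, and wild type 73 lay below knockout 22. The log2 fold change was -0.19 (SE 0.069), a fold of 0.877 with a 95% interval of 0.792 to 0.970, at an unadjusted p of 0.0141 and an adjusted p of 1 by edgeR. The authors' deposited table gives -0.18 with an unadjusted p of 0.00231 and an adjusted p of 0.867. Without wild type 6 it was -0.11, and without wild type 6 or knockout 7 no gene of the 10 had an unadjusted p under 0.05 in LC1. In RKI, Fabp7 had 283, 266 and 259 CPM in homozygotes, against 264, 250.5 and 268 CPM in wild types, a log2 fold change of 0.05 (SE 0.069), the sole one above 0. Slc1a3 (ENSMUSG00000005360, chr15:8634124-8710764, minus strand), the glutamate transporter GLAST, was the steadiest gene. It averaged 140 ± 13.9 CPM in LC1 knockouts, against 145 ± 2.62 CPM in their wild types, and 138 ± 4.25 CPM in RKI homozygotes and 143 ± 5.95 CPM in RKI wild types (SD, n = 3 each). Its log2 fold change was -0.05 in LC1 (SE 0.066) and -0.06 in RKI (SE 0.066).

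As a group the 10 genes were centred on no difference in LC1 and lay somewhat lower in RKI homozygotes. The LC1 knockouts had 5 of them higher and 5 lower, at a median log2 fold change of -0.01, the range being -0.19 to 0.10, where the median of all genes was 0.00. In RKI homozygotes 1 was higher and 9 lower, with a median of -0.12 and a range of -0.19 to 0.05, where the median of all genes was also 0.00 and that of the 6297 genes at this level 0.01. The RKI pattern leaned on single libraries. A16 was the highest of the 12 libraries for 6 of the 10 genes, Pax6, Emx1, Emx2, Lhx2, Vim and Nes. Without A16, 4 were higher and 6 lower, with a median of -0.09 and 0 at an unadjusted p under 0.05. Without homozygote A18, 2 were higher and 8 lower, with a median of -0.07 and again 0 at that p. Without A9 or A10, the only RKI females, the fit with a term for sex compares the 4 males. The median was then -0.25 in both cases, with 6 genes, Pax6, Emx1, Emx2, Lhx2, Vim and Nes, at an unadjusted p under 0.05, and 0 past the threshold. The share of all genes at that unadjusted p was also larger there, 8.17% without A9 and 8.24% without A10, and 0.0124% and 0.0123% of all genes passed the threshold. The smallest adjusted p among the 10 was 0.525 in these fits.

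**Figure D3:**
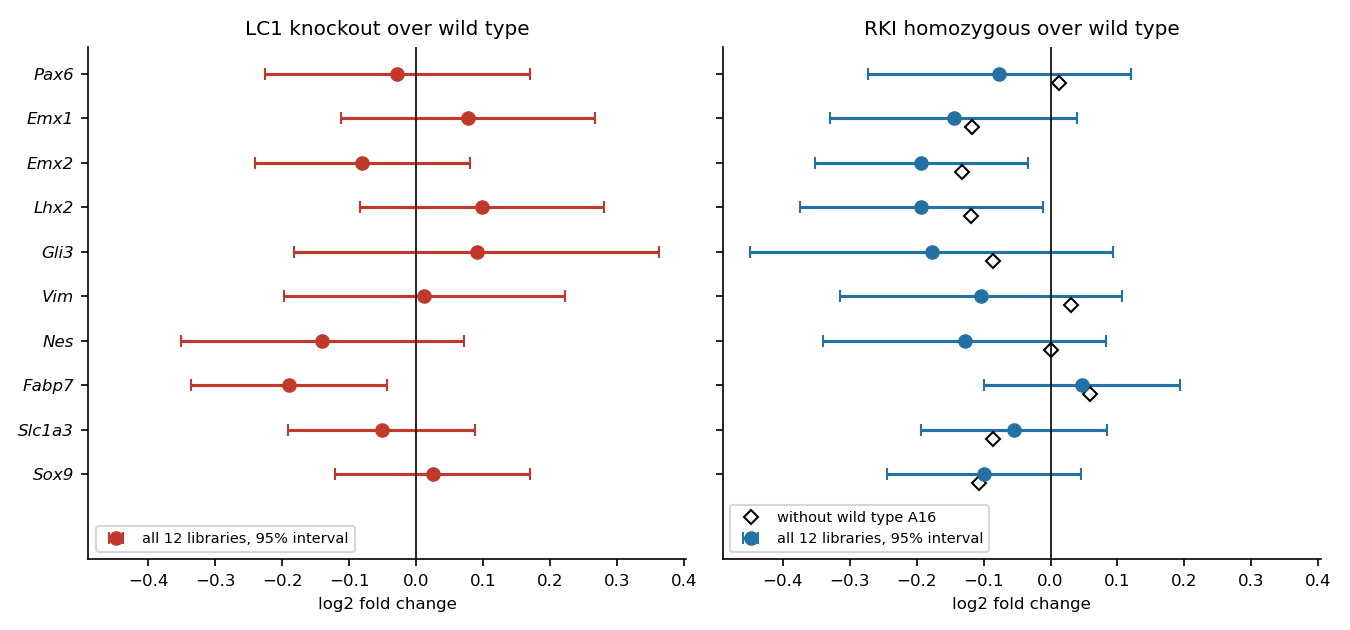
Log2 fold change of each gene for LC1 knockout over wild type and RKI homozygous over wild type, with 95% intervals from edgeR over 12 libraries. Diamonds give the RKI value without wild type A16. Intervals miss 0 for Fabp7 in LC1 and for Emx2 and Lhx2 in RKI, none of which passed after adjustment, and Pax6, Vim and Nes cross 0 without A16.

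Sums of marker genes of other cells also differed between libraries, and their covariation with the 10 genes was not computed. Midbrain and hindbrain genes summed to 51.2 to 72.4 CPM in RKI homozygotes and 40.5 to 51.4 CPM in RKI wild types, with A16 the lowest of all libraries. Of 12 tested genes of that list, 11 were higher in the homozygotes, and Hoxb2, Hoxb3 and Hoxa5 of the list were at 0 in every group. Proliferation genes summed to 1164 to 1257 CPM in RKI homozygotes and 1119 to 1699 CPM in RKI wild types, with A16 the highest, and 12 of 12 were lower in the homozygotes. Neuron genes summed to 9016 to 9532 CPM in RKI homozygotes and 8331 to 9504 CPM in RKI wild types, with A16 the lowest. In LC1, where Fabp7 was lower, microglia genes were lower in 10 of 10, at 145 to 155 CPM in knockouts and 154 to 198 CPM in wild types. Meninges and mesenchyme genes were lower in 12 of 12, at 627 to 819 CPM in knockouts and 756 to 922 CPM in wild types. Wild type 6, the highest library for Fabp7, was also the highest of the 12 in the sums of microglia, meninges and choroid plexus genes. Choroid plexus genes summed to 650 to 756 CPM in LC1 knockouts and 703 to 911 CPM in LC1 wild types, and to 737 to 765 CPM in RKI homozygotes and 788 to 883 CPM in RKI wild types, lower in 6 of 8 in both. Blood genes summed to 1021 to 1884 CPM in LC1 knockouts and 1172 to 1764 CPM in LC1 wild types, with knockout 7 and wild type 6 the highest of their groups. They summed to 962 to 1479 CPM in RKI homozygotes and 917 to 1696 CPM in RKI wild types. A16 was the highest RKI library for blood and for choroid plexus genes. None of these genes passed the threshold, and the part of these cells in the levels of the 10 genes was not tested.

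The effects of the deletion and of the knock-in did not differ past the threshold for any of the 10 genes. In the test of the LC1 effect minus the RKI effect, 0 of 10 were called, where 0% of all genes were. At an unadjusted p under 0.05 there were 2, Lhx2 and Fabp7, where 2.42% of all genes were listed. For Lhx2 the difference was 0.29 (SE 0.121), at an unadjusted p of 0.0284 and an adjusted p of 0.9998. For Fabp7 it was -0.24 (SE 0.098), at an unadjusted p of 0.0272 and the same adjusted p. Both lost that p without knockout 7, knockout 71 or wild type 6. Between the wild types of the experiments, RKI minus LC1, 0 of 10 were called, where 0.0125% of all genes were, and Fabp7 had -0.20 (SE 0.086, unadjusted p = 0.0334 by edgeR). Between male and female embryos, compared within RKI alone since LC1 has no males, 0 of 10 were called, where 0.05% of all genes were. There 9 of 10 were higher in males, with a median of 0.09, but without A9 5 were higher and 5 lower. Emx2 had the largest value, at 0.20 (SE 0.081, unadjusted p = 0.0219, adjusted p = 0.89 by edgeR). Without A1, A9 or A16 it had an unadjusted p above 0.05.

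Isoforms were tested on the authors' transcript estimates, rounded, over 47772 transcripts. Of 52 tested transcripts of the 10 genes, 0 were called in LC1 and 0 in RKI, where 0% of all transcripts were called in each. At an unadjusted p under 0.05 there was 1 in LC1, where 2.97% of all transcripts were listed, and 5 in RKI, where 2.45% were. The LC1 transcript was Emx1-002, a retained-intron form, with 0.552, 0.394 and 0.665 RPKM in knockouts, against 0.728, 1.13 and 1.43 RPKM in wild types. All knockouts were below all wild types, but the RKI wild types ran from 0.397 to 0.982 RPKM. In RKI, the coding form Lhx2-003 had 32.9, 31.5 and 31.4 RPKM in homozygotes, against 39.2, 31.7 and 43.2 RPKM in wild types, a log2 fold change of -0.23 (SE 0.077). The coding form Emx2-001 had 10.4, 9.79 and 9.35 RPKM in homozygotes, against 11.8, 9.94 and 13.4 RPKM in wild types, at -0.23 (SE 0.095). These follow their genes, with A9 the lowest of the wild types in both. Gli3-004, a non-coding form, had 3.03, 3.1 and 2.54 RPKM in homozygotes, against 1.78, 0.454 and 1.57 RPKM in wild types, at 1.35 (SE 0.446), the opposite direction to its gene. The non-coding Pax6-023 was listed at 0, 0.397 and 0.239 RPKM in homozygotes A1, A10 and A18, against 3.13, 3.8 and 4.92 RPKM in wild types A2, A9 and A16, at an unadjusted p of 0.0134 and an adjusted p of 1 by edgeR. The coding Pax6-002 was listed at 0.949, 0.721 and 0.748 RPKM in the same homozygotes, against 0, 0.692 and 0 RPKM in the wild types, at an unadjusted p of 0.026 and an adjusted p of 1 by edgeR. The homozygotes were thus wholly below the wild types for Pax6-023 and wholly above them for Pax6-002, where A9 lay just under the lowest homozygote. A2 and A16, at 0 for Pax6-002, were the only libraries with a value for the coding Pax6-001, at 0.74 and 0.269 RPKM. How reads were divided between Pax6-001 and Pax6-002 was not tested. The forms listed here, Emx1-002 among them, were picked for their p. The share of all transcripts with groups apart in this way was not computed, so the separations are a description. In LC1, Pax6-023 ran from 1.96 to 5.17 RPKM in knockouts and from 0 to 2.22 RPKM in wild types, with a 0 in wild type 26. With values listed at 0, no fold is given for Pax6-023 or Pax6-002. By RPKM, the most abundant estimate was a non-coding form for Pax6 (Pax6-003, a median of 45.5% of the gene's RPKM). It was a retained-intron form for Vim (Vim-004, 49.2%) and a coding form for the other 8 genes. In estimated counts, which are not divided by length, the coding Vim-001 was above Vim-004 in every library. In LC1 knockout 7 the counts were 10623 for Vim-001 and 7159 for Vim-004.

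Most of the 10 genes varied together from embryo to embryo, within groups. With group means removed from log2 CPM, the median Pearson r over the 45 pairs was 0.484, and 37 pairs were positive. Over all pairs of the 16002 genes the median was 0.00, and 12.5% of pairs reached the value of the 10 genes. Among the 6297 genes at this level 16.4% of pairs did. The points are the same 12 libraries in every pair and share their scaling. Embryos A16 and A9, both RKI wild types, lay at the ends: the median deviation of the 10 genes from their group mean was 0.16 in A16 and -0.16 in A9, on the log2 scale. In A9 and in RKI homozygote A18 all 10 genes were below their mean over the 12 libraries.

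**Figure D4:**
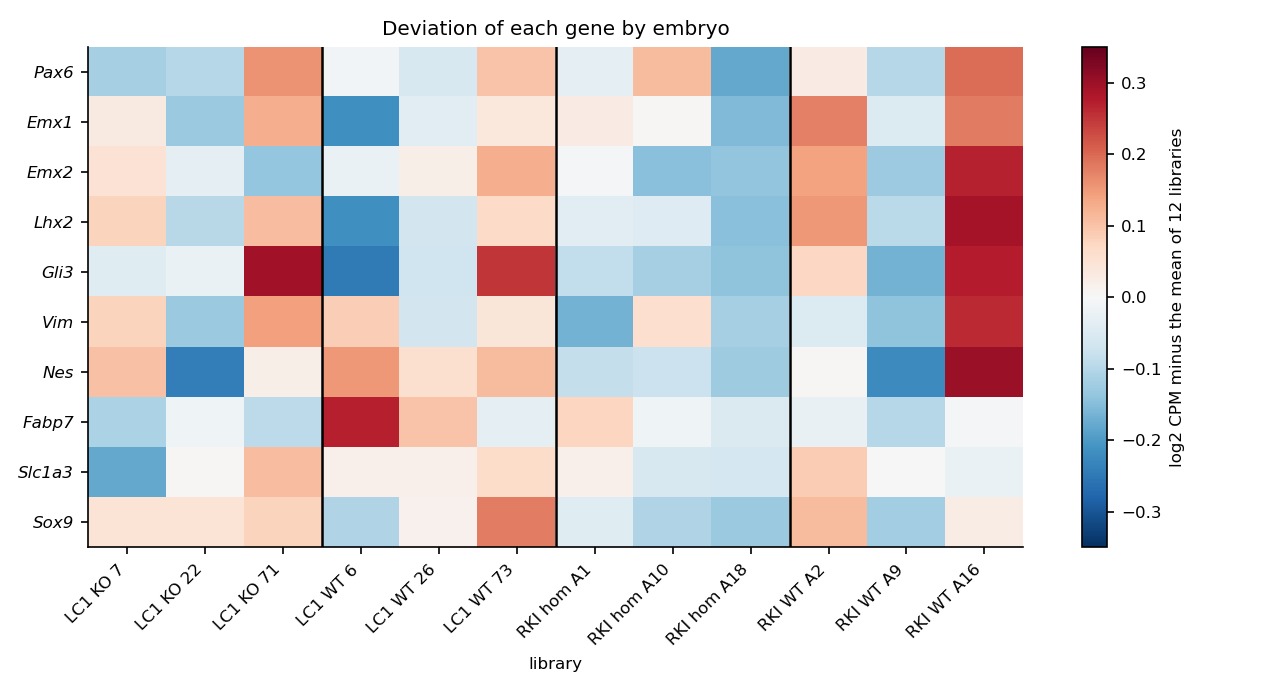
Log2 CPM of each gene minus its mean over the 12 libraries, by embryo, in the order LC1 knockout, LC1 wild type, RKI homozygous and RKI wild type. Red is above and blue below the mean; 8 of 10 genes are above it in A16 and 10 of 10 are below it in A9 and A18.

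The closest pairs were Emx1 with Lhx2, Vim with Nes and Lhx2 with Gli3. Emx1 and Lhx2 had r = 0.925 (exact permutation within groups, p = 0.000772, the smallest that its 1296 arrangements can give) and Spearman's rho = 0.895 (p = 0.00309, exact). Without the 2 libraries farthest from the median for Emx1, wild types A9 and 6, r was 0.873. It was 0.969 within LC1 and 0.895 within RKI. In each pair the 2 libraries left out were the farthest for the gene named first, so extremes of the gene named second could remain. Vim and Nes, whose proteins co-assemble, had r = 0.872 (exact p = 0.0108) and rho = 0.86 (exact p = 0.00849). Their r was 0.738 without A16 and A9, and 0.881 within LC1 and 0.868 within RKI. Lhx2 and Gli3 had r = 0.869 (exact p = 0.0131) and rho = 0.825 (exact p = 0.0154). Their r was 0.777 without A9 and wild type 6, and 0.829 within LC1 and 0.974 within RKI. The paralogs Emx1 and Emx2 were looser, at r = 0.548 (exact p = 0.137) and rho = 0.385 (exact p = 0.343), with 0.241 without A9 and wild type 6, 0.176 within LC1 and 0.831 within RKI. These are 4 of 45 pairs computed, the p-values are unadjusted, and the same p was not computed over other gene pairs.

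Fabp7 and Slc1a3 stood outside this pattern. Lhx2 had the highest median r to the other 9 genes, at 0.747, against 0.0859 for Slc1a3 and -0.01 for Fabp7. The sign of Fabp7 differed between the experiments: its r with Lhx2 was -0.933 within the 6 LC1 libraries and 0.762 within the 6 RKI libraries, and with Sox9 it was -0.943 within LC1 and 0.759 within RKI. Wild type 6 was the highest of the 12 libraries for Fabp7 and the lowest for Lhx2. Without wild types 6 and 73, the r of Fabp7 with Sox9 over the remaining libraries was 0.621. The median over the 45 pairs was 0.242 within LC1 and 0.746 within RKI, and it was 0.301 over 11 libraries without A9 and 0.402 without A16. Whether the experiments differ in this was not tested.

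**Figure D5:**
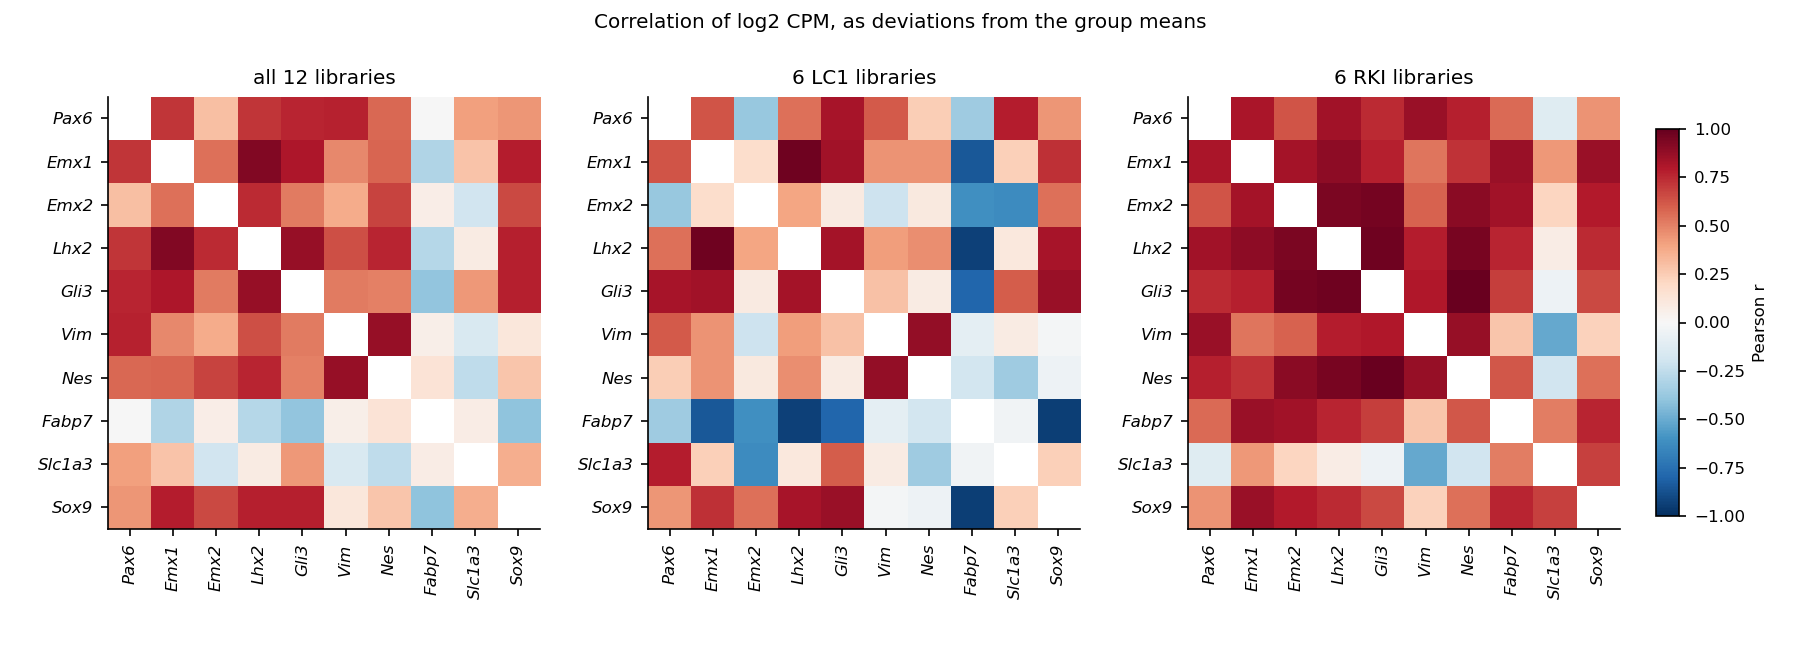
Pearson r of log2 CPM between the 10 genes, as deviations from the group means, over all 12 libraries, over the 6 LC1 libraries and over the 6 RKI libraries. Red is positive and blue negative; the block from Pax6 to Nes is positive over all 12 libraries, and Fabp7 is negative with Emx1, Lhx2, Gli3 and Sox9 in LC1 and positive with them in RKI.

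The sequence before a RefSeq start site is given for Lhx2 and Gli3. Windows of Vim, Nes and Emx1, and another of Lhx2, overlap an exon of their gene and are not printed. Whether these sequences bear on the correlation of Lhx2 with Gli3 was not tested. The 180 bases before the RefSeq start sites of Lhx2 (chr2:38339101-38339280, plus strand) and Gli3 (chr13:15463543-15463722, plus strand), in GRCm38.p6, are given with the GC box GGGCGG in capitals, since it is the promoter element both hold. The Gli3 window lies inside the gene as GENCODE M21 draws it, in the first intron of transcripts that start further upstream, and overlaps no exon.
Lhx2: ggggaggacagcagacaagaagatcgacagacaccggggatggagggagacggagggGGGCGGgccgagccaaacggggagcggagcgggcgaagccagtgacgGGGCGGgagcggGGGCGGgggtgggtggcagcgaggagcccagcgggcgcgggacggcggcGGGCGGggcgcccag
Gli3: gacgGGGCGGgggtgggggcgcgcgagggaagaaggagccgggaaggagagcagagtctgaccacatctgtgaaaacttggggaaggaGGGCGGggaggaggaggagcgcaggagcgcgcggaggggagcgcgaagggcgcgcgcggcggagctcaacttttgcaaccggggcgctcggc
The first holds 4 such boxes and the second 2, and their GC content is 77.2% and 71.1%. RefSeq promoters were found for 9 of the 10 genes, in 11 windows of 250 upstream bases, and GGGCGG or its reverse complement lay in 6 of the 11, where 32.7% of 32851 such windows hold it. The TATA box TATAAA lay in 2 of the 11, where 12.4% of all windows hold it. In Vim it began 32 bases before the start site. The CCAAT box lay in 5 of the 11 (33.8% of all windows). The POU octamer ATGCNAAT, the homeodomain core TAATTA, the SOX core ACAATG and the E-box CAGCTG lay in 0 of the 11, where 2.86%, 4.84%, 10.7% and 13% of all windows hold them. All were searched on both strands. A match of letters is not a bound site, and a missing match says only that these letters are not in the window.

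Outside the set, the genes closest to each of the 10 over the 12 libraries, with a mean of at least 5 CPM, were named by Pearson r of log2 CPM with no test. Gli3 was closest to Nr2e1 (r = 0.974), the nuclear receptor TLX of neural stem cells, to Cdon (0.967), a Hedgehog co-receptor, and to Asxl2 (0.939). Emx1 was closest to Cep152 (0.954), a centriole protein, and to Neurog2 (0.952), the proneural factor of cortical progenitors, then Masp1 (0.934). Lhx2 was closest to Ezh2 (0.937), the methyltransferase of Polycomb complex PRC2, to Ddx11 (0.932) and to Cep152 (0.929). Sox9 was closest to Col2a1 (0.911), a collagen gene that it is known to activate in cartilage, to Sox3 (0.905) and to Msi2 (0.904). Pax6 was closest to Ccdc134 (0.95), Emx2 to Snap23 (0.943), Vim to Jam3 (0.963) and Nes to Hnrnpa2b1 (0.938). Fabp7 was closest to Zfp120 (0.944) and Slc1a3 to Gm29260 (0.9). These genes were picked for their r, so the values are a description.

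Other genes of the same pathways were then described by list, and 0 passed the threshold in any list by edgeR. Of 24 other radial glia genes, 17 were higher and 7 lower in LC1 knockouts (median log2 fold change 0.03), and 5 higher and 19 lower in RKI homozygotes (median -0.06). In RKI those with the smallest p were Nfia at -0.18 (SE 0.065), Hes1, a Notch target, at -0.30 (SE 0.133) and Aldoc at -0.30 (SE 0.129). In LC1 they were Sox1 at 0.19 (SE 0.087), Cdh2 at 0.10 (SE 0.055) and Gja1 at -0.12 (SE 0.091). Of 28 other dorsal patterning genes, 12 were higher and 16 lower in LC1 knockouts (median 0.00), and 7 higher and 21 lower in RKI homozygotes (median -0.12). Wnt3a, a signal of the cortical hem, had -0.71 (SE 0.195) in RKI, the Wnt agonist Rspo3 -0.26 (SE 0.086) and Fgf17 -0.64 (SE 0.316). Bmp7, a signal of the dorsal midline, had -0.15 (SE 0.102) in LC1. Of 12 Hedgehog and GLI genes, 8 were higher and 4 lower in LC1 knockouts, and 4 higher and 8 lower in RKI homozygotes. Ventral progenitor genes, whose territory borders that of Pax6 and Emx2, were higher in 7 of 8 in LC1 knockouts (median 0.15). They were higher in 6 of 8 in RKI homozygotes (median 0.03). Their sums ran from 356 to 496 CPM in LC1 knockouts and 368.5 to 405.5 CPM in LC1 wild types, with knockout 71 the lowest of the 12 libraries. In RKI they ran from 380 to 492 CPM in homozygotes and 370 to 417 CPM in wild types. Intermediate progenitor genes, the next step of the cortical lineage, were higher in 10 of 10 in LC1 knockouts (median 0.14). They were lower in 9 of 10 in RKI homozygotes (median -0.11). Their sums overlapped in both, at 620.5 to 670.8 CPM in LC1 knockouts and 570.4 to 625.3 CPM in LC1 wild types. RKI homozygotes had 603.4 to 647.6 CPM and RKI wild types 618.2 to 688.6 CPM. Of all genes, 51.4% were lower in LC1 knockouts and 49.4% in RKI homozygotes. Genes of a list share the same embryos, so these counts are a description.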

How the data were processed

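Whole embryonic brains were sequenced with an oligo-dT kit, per the labels' protocol. The authors deposited whole-number counts per gene, RPKM per gene and per transcript, and estimated counts per transcript. Tools listed in the submitters' processing notes are featureCounts 1.4.5, Subread, STAR 2.0.4b, limma and edgeR, with no roles. For build, annotation and strand setting the sources used here state nothing. The deposited percent GC content per gene stayed out of all tests. The authors' deposited comparisons give log2 fold changes and p-values, and their RKI sign was turned to homozygous minus wild type; their 24 per-sample columns were not used.

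The count table has 41264 rows for 40690 identifiers, and the 574 repeats were dropped. Gene counts were tested with edgeR 4.0.16 in R 4.3.3 (quasi-likelihood, TMM, filterByExpr by group, robust), in 1 fit of 12 libraries with 4 group means and sex, leaving 7 residual degrees of freedom, with Benjamini-Hochberg adjustment over 16002 genes at 0.05. The common biological coefficient of variation was 6.94%. P-values rest on the spread between 3 embryos a group, pooled over groups. Estimated transcript counts were rounded and tested in the same way. CPM values use the library total after TMM scaling. Correlations used log2 of CPM with a small constant added, and exact permutation within groups. Pax6 isoforms were split by the alternative exon in GENCODE M21. Alternatives were DESeq2 1.42.0, limma-voom 3.58.1, RLE scaling, no filter, no sex term, a block of neighbouring embryo numbers, each experiment alone and each library left out. The genes and lists were chosen with earlier results of these data known. Genes named from the other lists are up to 3 per list with the smallest p, of which some are not reported here; antisense genes are those that overlap a member by name, and of pairs the 3 with the largest r plus Emx1 with Emx2. The split by exon 5a and the promoters were chosen after seeing the data.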

Additional observations from a re-analysis of the deposited data

How the results depend on the processing

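No gene of the 10 passed the threshold in any comparison under any alternative run, by DESeq2, limma-voom, RLE scaling, no low-count filter, no sex term, the block of neighbouring numbers or each experiment alone. No alternative other than leaving out a library turned a direction in LC1 or RKI. With single libraries left out, the LC1 log2 fold change ran from -0.119 to 0.0195 for Pax6, -0.0231 to 0.239 for Gli3, -0.0425 to 0.0878 for Vim, -0.115 to 0.0226 for Slc1a3 and -0.0422 to 0.103 for Sox9. The RKI value ran from -0.218 to 0.0122 for Pax6, -0.255 to 0.0307 for Vim and -0.264 to 0.00094 for Nes. The RKI median over the 10 genes ran from -0.247 to -0.0684 and the LC1 median from -0.04 to 0.02. The median r over the 45 pairs ran from 0.301 to 0.582 with single libraries left out, and was 0.242 in the 6 LC1 libraries and 0.746 in the 6 RKI libraries; the cause was not tested. No label ties neighbouring embryo numbers to litters. With them as a block, edgeR called 0 of all genes in LC1 and 3 in RKI, and at an unadjusted p under 0.05 listed Fabp7 in LC1, at -0.19, and Emx2, Lhx2 and Gli3 in RKI. Between neighbouring numbers, Fabp7 and Nes were lower and Gli3 higher in 3 of 3 LC1 knockouts. Emx2 and Slc1a3 were lower in 3 of 3 RKI homozygotes, Slc1a3 by log2 differences of -0.071, -0.055 and -0.038. The share of all genes with 1 direction in 3 of 3 pairs was not computed, so these counts are a description. With no filter on low counts, edgeR called 4 of all genes in LC1 and 26 in RKI, and none was among the 10. At an unadjusted p under 0.05 that fit listed Nes and Fabp7 in LC1, where 2.39% of all genes were listed. In RKI it listed Emx2, Lhx2, Gli3 and Nes, where 2.71% of all genes were listed. With 3 embryos a group intervals are wide: the 95% interval of Gli3 in RKI ran from -0.45 to 0.09.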
